A study of Mus musculus with 15 samples.

Results

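The genes described here encode the ATPases, the shared core and the ARID1 subunits of the BAF form of the SWI/SNF chromatin remodeling complex. They were taken by symbol, with earlier results of these data known, as *Smarca4*, *Smarca2*, *Arid1a*, *Arid1b*, *Smarcb1*, *Smarcc1*, *Smarcc2*, *Smarcd1*, *Smarce1* and *Actl6a*. All 10 were found among the 18279 genes of the table, and all 10 were tested. RNA was sequenced from 15 tumors of Renca, a murine renal carcinoma line of BALB/c origin, grown in immunocompetent female BALB/c mice purchased at 4 to 6 weeks of age. Cells in Matrigel were placed under the skin of the back, and tumors were taken once they reached 1000 mm3, ulcerated or caused distress. The study reports slower growth of untreated knockout than control tumors, so tumor age at collection may also differ between the groups. The day of collection is not given in the sources used here. The control group held 5 tumors (1 to 5), which the sample records attribute to Renca parental cells and the study to control knockout cells. *Pbrm1* knockout clone 4 gave 5 tumors (6 to 10) and *Pbrm1* knockout clone 18 gave 5 (11 to 15). The knockout lines came from transient *Cas9* expression followed by single-cell sorting. Whether the control cells were also sorted as single cells is not given in the sources used here. Each group is 1 line, its 5 tumors are repeats of that line, and genotype and line cannot be told apart. The protocol names mice left untreated and mice given PD-1 antibody, and which of these applies to the sequenced tumors is not given in the sources used here.

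SWI/SNF complexes use the energy of ATP to slide or evict nucleosomes. Each complex holds a single ATPase, SMARCA4 (BRG1) or SMARCA2 (BRM). The subunits counted here as core are those found in canonical BAF and PBAF. They are the scaffold subunits SMARCC1 and SMARCC2, with SMARCB1, SMARCD, SMARCE1 and the actin-like ACTL6A. Canonical BAF adds ARID1A or ARID1B, whereas PBAF carries PBRM1, ARID2, BRD7 and PHF10 in their place, and both forms share the ATPase and most of the core. The study knocked out the PBAF subunit *Pbrm1* and followed BRG1 binding at the promoters of *Ifngr2*, *Cxcl9* and *Cxcl10* in cultured Renca cells. The values here are RNA levels of the ATPases and of the shared core in whole tumors. They measure neither BRG1 protein nor its binding.

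The promoters of the paralog pairs *Smarca4* and *Smarca2*, and *Smarcc1* and *Smarcc2*, are shown because the ratio within each pair differed between control and knockout tumors. The stretches lie within the 250 bases before the RefSeq gene starts of GRCm38.p6, on the plus strand, without bases that GENCODE places in an exon, at chr9:21615919-21616168, chr19:26604910-26605049, chr9:110131774-110131979 and chr10:128458986-128459235. The RefSeq start of *Smarcc1* lies inside the gene as GENCODE draws it, whose start is farther upstream. Capitals mark the GC box (GGGCGG, or CCGCCC on the other strand) and the core of the NRF1 motif (GCATGC, the same on both strands).
Smarca4: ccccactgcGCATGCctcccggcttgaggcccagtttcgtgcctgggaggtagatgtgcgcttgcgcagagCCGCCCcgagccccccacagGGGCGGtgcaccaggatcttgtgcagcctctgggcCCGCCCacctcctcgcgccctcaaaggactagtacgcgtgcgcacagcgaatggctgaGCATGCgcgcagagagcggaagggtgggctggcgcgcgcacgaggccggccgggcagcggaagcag
Smarca2: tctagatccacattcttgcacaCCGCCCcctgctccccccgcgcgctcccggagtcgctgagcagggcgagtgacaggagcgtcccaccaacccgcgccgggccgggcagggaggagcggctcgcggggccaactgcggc
Smarcc1: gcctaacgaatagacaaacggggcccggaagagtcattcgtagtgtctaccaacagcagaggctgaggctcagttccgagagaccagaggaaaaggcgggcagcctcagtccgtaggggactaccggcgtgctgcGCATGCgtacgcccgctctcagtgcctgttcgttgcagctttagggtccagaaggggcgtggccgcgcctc
Smarcc2: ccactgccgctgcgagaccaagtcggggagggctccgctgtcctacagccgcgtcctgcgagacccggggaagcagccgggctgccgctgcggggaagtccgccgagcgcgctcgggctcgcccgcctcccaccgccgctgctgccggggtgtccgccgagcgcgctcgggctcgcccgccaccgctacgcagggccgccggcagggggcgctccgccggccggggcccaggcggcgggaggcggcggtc
Within these letters the *Smarca4* stretch held 3 GC boxes and GCATGC at 2 places, the *Smarca2* stretch 1 GC box, the *Smarcc1* stretch GCATGC at 1 place, and the *Smarcc2* stretch neither. RefSeq windows of 300 bases around the gene start were found for 9 of the 10 genes, all but *Smarce1*, with 2 windows for *Arid1a*. In these windows 9 of 9 genes had a GC box, which 35.7% of all 32851 windows held. GCATGC was in 3 of 9, *Smarca4*, *Smarcb1* and *Smarcc1*, against 7.9% of all windows. The ETS letters CCGGAAG were in *Smarca2* and *Smarcc1*, 2 of 9, against 8.9%. TATAAA (13.6% of all windows), CCAAT (37.4%) and CACGTG (7.2%) were found in 0 of 9 on either strand. The windows of these genes held 21 to 48 CpG dinucleotides, against a median of 7 over all windows. A match of letters is a description and not a site.

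Between 32924414 and 49099168 reads per tumor lay on genes, and a BAF gene had from 835 reads (*Arid1a*, tumor 9) to 7293 reads (*Smarca4*, tumor 2) in a tumor. The values are normalized counts, the reads on a gene divided by a size factor for the tumor. As a check of the labels, the targeted *Pbrm1* averaged 9012 ± 956 normalized counts over the 5 control tumors (SD), and 2751 ± 213 over the 5 of clone 4, with 2838 ± 210 for the 5 of clone 18, and its counts did not overlap between control and knockout tumors. The renal epithelial markers summed to between 107894 and 129010 in control tumors and between 90899 and 121030 in knockout tumors, with 1 of the 7 genes higher (*Epcam*, log2 difference 1.23, limma adjusted p = 0.00286) and 1 lower (*Krt18*, -0.32, adjusted p = 0.0197). *Lhx1* of this list was near absent, at 7.4 to 35.2 in control and 7.6 to 42.5 in knockout tumors. Macrophage markers summed to between 71796 and 93898 in control tumors and between 51765 and 70816 in knockout tumors, with no overlap and 4 of the 7 genes lower past the threshold. T cell markers summed to between 462 and 1411 in control tumors and between 468 and 736 in knockout tumors, with 3 of 8 genes lower. *Lck* alone was at 368.2 to 608.1 in control and 396.6 to 564.7 in knockout tumors, and the other 7 genes summed to 94.1 to 803 in control and 58 to 186 in knockout tumors. Neutrophil markers ran from 764 to 1778 and from 497 to 1984, with 2 of 6 genes lower, *Csf3r* and *Ly6g*. Of these, *Ly6g* was near absent, at 1.1 to 2.3 in control and 0 to 1.1 in knockout tumors. The fibroblast sum ran from 48970 to 81772 in control and from 18715 to 184179 in knockout tumors, the endothelial sum from 4935 to 11323 and from 6416 to 11965, and the proliferation sum from 46266 to 64858 and from 46482 to 66087, with 0 genes of these lists past the threshold. In bulk RNA, fewer cells of a type and less RNA per cell cannot be told apart.

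On the log2 scale, 3 of the 10 BAF genes passed the threshold between the 10 knockout and the 5 control tumors (limma, Benjamini-Hochberg adjusted p under 0.05 over all 18250 genes tested). *Smarca2* and *Smarcd1* were lower and *Smarcc2* was higher. Over all genes 22.1% passed, and 25.9% of those whose mean normalized count was 1000 or more, as for these 10 genes, so 3 of 10 is near the background. By direction, 12.9% of all genes were lower and 9.23% higher, so that 41.7% of the called genes were higher, a share that was 53.5% after quantile normalization. The median log2 difference of the 10 genes was -0.08, against -0.019 over all genes, and 7 of the 10 were below 0. With GC content and transcript length corrected, *Arid1a* and *Smarcb1* moved above 0, to 0.046 and 0.08, and the median over all genes was 0.036. In clone 4 against the control, 2 of 10 passed, *Smarca2* lower and *Actl6a* higher, where 16.8% of all genes and 20.3% of the abundant ones did. Clone 18 against the same 5 control tumors gave 3 of 10, *Smarca2* and *Smarcd1* lower and *Smarcc2* higher, where 24.7% and 28.8% did. Between the clones, limma called 0 of 10, where 4.62% of all genes and 6.08% of the abundant ones passed. At an unadjusted p under 0.05, 3 of the 10 differed between the clones, and edgeR and DESeq2 also called 0.

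**Figure D1:**
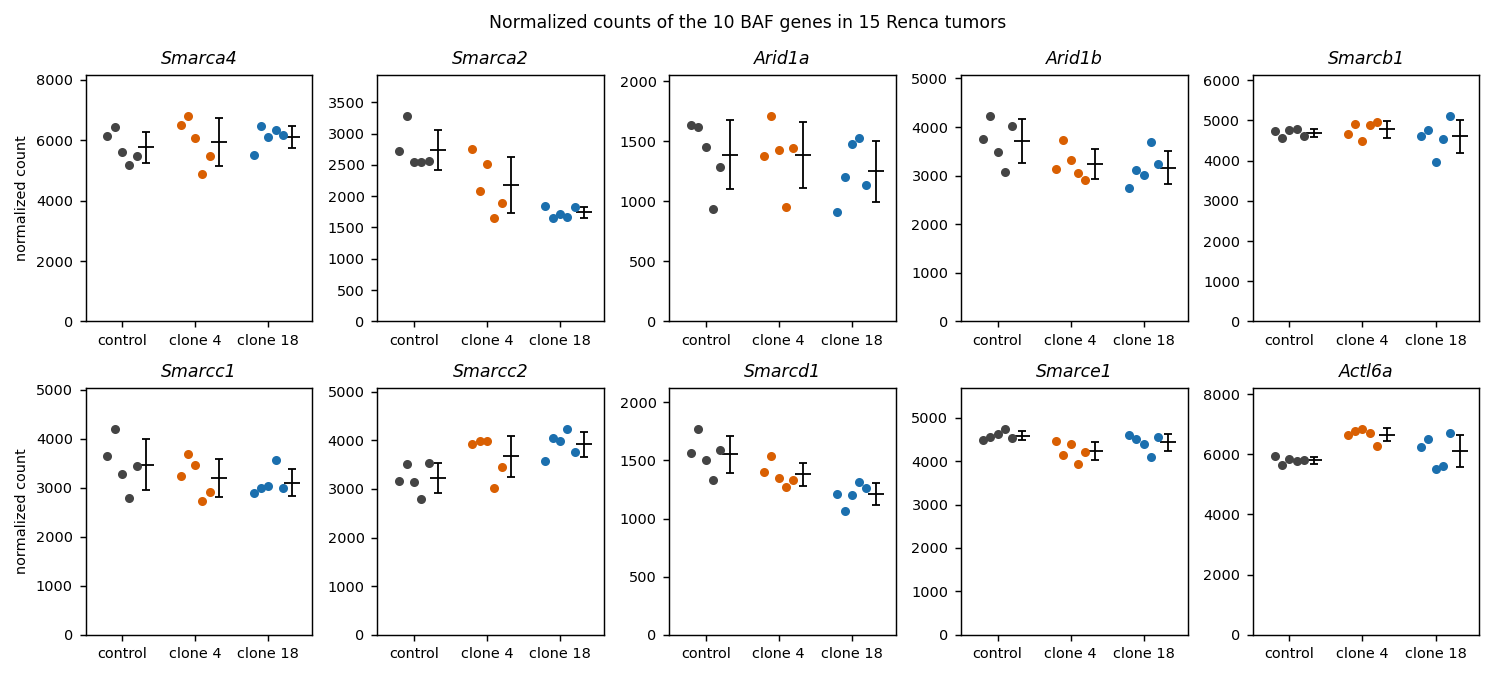
Normalized counts of the 10 BAF genes on linear axes from 0, with 1 point per tumor (5 per group) and the mean ± SD of the group beside the points. *Smarca2* falls from a mean of 2733 over control tumors to 2176 over clone 4 and 1740 over clone 18, while *Smarca4* stays between 5761 and 6115.

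*Smarca4* (ENSMUSG00000032187) lies on chromosome 9 of GRCm38 from 21616169 to 21704230, on the plus strand, and encodes the ATPase BRG1. In control tumors its normalized counts were 6133.3, 6423.3, 5609.3, 5169 and 5471.6. Clone 4 tumors had 6501.5, 6812.3, 6078.5, 4874.3 and 5465.1, and clone 18 tumors 5522.9, 6455.9, 6090.6, 6323.9 and 6179.7. The groups overlapped throughout, with tumor 9 lowest of all and tumor 7 highest. The group means were 5761 ± 509 (control), 5946 ± 784 (clone 4) and 6115 ± 359 (clone 18, SD, n = 5 each). Against the control, knockout tumors had a mean 1.05 times as high and a log2 difference of 0.06 (95% confidence interval -0.09 to 0.22, limma adjusted p = 0.594). The interval was -0.14 to 0.22 for clone 4 and -0.09 to 0.27 for clone 18, so that a fall of *Smarca4* beyond -0.14 on the log2 scale lay outside the interval of either clone.

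*Smarca2* (ENSMUSG00000024921), on chromosome 19 from 26605050 to 26778322 on the plus strand, encodes BRM, the alternative ATPase. Its normalized counts were 2726, 3284.3, 2540.8, 2551.4 and 2562.9 in control tumors. In clone 4 they were 2747.4, 2078.4, 2512.6, 1655.5 and 1888.2, and in clone 18 they were 1847.1, 1656.1, 1710.8, 1667.9 and 1820.3. All 5 tumors of clone 18 and 4 of clone 4 lay below each control tumor, and tumor 6 of clone 4 lay within the control range. The mean count went from 2733 ± 317 for control tumors to 2176 ± 448 for clone 4 and 1740 ± 88.0 for clone 18 (SD, n = 5 each). Relative to the control, the knockout mean changed by -28.3%, with a log2 difference of -0.495 (SE 0.115, limma adjusted p = 0.00483). In clone 18 the log2 difference was -0.645 (SE 0.114, adjusted p = 0.000574), and in clone 4 it was -0.346 (SE 0.114, adjusted p = 0.0453). The clones differed by -0.30 (95% confidence interval -0.54 to -0.06, adjusted p = 0.158). The clone 4 call lay near the threshold and was lost without tumor 9 (-0.253, adjusted p = 0.12), without any one of tumors 1 to 5, 7 and 10 (-0.278 to -0.37), and without any one of the clone 18 tumors, where the difference itself remained at -0.346. It was also lost with limma without trend (adjusted p = 0.0796), with edgeR (adjusted p = 0.0746) and with GC content and transcript length corrected (-0.256, adjusted p = 0.175). The macrophage marker sum also differed between control and knockout tumors, and its part in the results for *Smarca2*, *Smarcd1* and *Smarcc2* was not tested. The antisense genes *Gm20616* and *4931403E22Rik* overlap *Smarca2* on the other strand, and a strand setting for the counting is not given in the sources used here.

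*Arid1a* (ENSMUSG00000007880), on chromosome 4 from 133679008 to 133756769 on the minus strand, encodes a DNA-binding subunit and is the BAF gene most often mutated in cancer. It had normalized counts of 1632.8, 1622.3, 1455.9, 937.9 and 1287.8 in control tumors. Clone 4 tumors had 1373.2, 1712.4, 1424.4, 950.1 and 1445.9, and clone 18 tumors 910.3, 1200.9, 1476.5, 1523.6 and 1137.4. Each group held a tumor below 1000, tumors 4, 9 and 11, and the groups overlapped. The log2 difference of knockout against control was -0.08 (95% confidence interval -0.39 to 0.24, limma adjusted p = 0.779), the widest interval of the 10 genes.

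*Arid1b* (ENSMUSG00000069729), the paralog that takes the place of *Arid1a* in other BAF complexes, lies on chromosome 17 from 4994332 to 5347656 on the plus strand. Control tumors had normalized counts of 3751.9, 4233.8, 3493.2, 3081.4 and 4013.6. Clone 4 tumors had 3143.7, 3731.5, 3323.2, 3061.8 and 2916.3, and clone 18 tumors 2748.2, 3121.5, 3019.8, 3683.7 and 3237.6. The control mean was 3715 ± 450 (SD, n = 5), which 9 knockout tumors did not reach, and 4 lay below each control tumor. The log2 difference was -0.21 (95% confidence interval -0.38 to -0.05), and its limma adjusted p of 0.0635 missed the threshold. Without tumor 4, 7 or 14 it passed, with adjusted p of 0.0199, 0.0337 and 0.0397, while with GC content and length corrected the difference was -0.096 (adjusted p = 0.367).

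*Smarcc1* (ENSMUSG00000032481), the scaffold subunit BAF155, lies on chromosome 9 from 110117708 to 110240178 on the plus strand. Its normalized counts ran from 2795.7 through a median of 3452.2 to 4198.5 in control tumors, from 2719.3 through 3244.9 to 3682.8 in clone 4, and from 2882.9 through 3003.7 to 3575.4 in clone 18. The log2 difference was -0.13 (95% confidence interval -0.32 to 0.05, limma adjusted p = 0.302). *Dhx30* overlaps *Smarcc1* on the other strand.

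*Smarcc2* (ENSMUSG00000025369), the scaffold subunit BAF170, lies on chromosome 10 from 128459248 to 128490482 on the plus strand. The control tumors had normalized counts of 3171.7, 3505.4, 3146.4, 2792.3 and 3525.1. In clone 4 they were 3916.1, 3985.7, 3977.7, 3020.8 and 3451, and in clone 18 they were 3575.8, 4049.2, 3988.4, 4233 and 3752.6. All 5 tumors of clone 18 and 3 of clone 4 lay above each control tumor, while tumors 9 and 10 of clone 4 lay within the control range. Against the control, knockout tumors had a mean 1.18 times as high and a log2 difference of 0.23 (SE 0.08, limma adjusted p = 0.0333). It was 0.28 in clone 18 (SE 0.08, adjusted p = 0.021) and 0.18 in clone 4 (SE 0.08, adjusted p = 0.158). The call for both clones together was lost without trend in limma (adjusted p = 0.0554) and without tumor 1, 3, 4, 8, 12 or 14 (adjusted p of 0.0518 to 0.114). In clone 18 it was lost without tumor 4 or 14 (adjusted p of 0.0589 and 0.0533). In clone 4 the difference passed without tumor 9, at 0.25 (adjusted p = 0.0384), and with GC content and length corrected, at 0.297 (adjusted p = 0.0194).

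*Smarcd1* (ENSMUSG00000023018), which encodes BAF60A, a subunit that links the complex to transcription factors, lies on chromosome 15 from 99702129 to 99713991 on the plus strand. Its normalized counts were 1565.5, 1771.2, 1507.8, 1328.9 and 1588.1 in control tumors. Clone 4 tumors had 1400.2, 1541.3, 1350.8, 1270.9 and 1334.5, and clone 18 tumors 1215.4, 1063.1, 1204.2, 1315.1 and 1262.8. All 5 clone 18 tumors and 1 clone 4 tumor lay below each control tumor. Relative to the control, the knockout mean changed by -16.5%, with a log2 difference of -0.26 (SE 0.08, limma adjusted p = 0.0244). It was -0.35 in clone 18 (SE 0.08, adjusted p = 0.00397) and -0.17 in clone 4 (SE 0.08, adjusted p = 0.177). The genes of chromosome 15 had a median log2 difference of -0.108, and the part of this shift in the result was not tested. The call for both clones together was lost without tumor 1, 2 or 5 (adjusted p of 0.0537, 0.0847 and 0.0572) and with GC content and length corrected (-0.161, adjusted p = 0.169). *Gm17349* and *Gm34939* overlap *Smarcd1* on the other strand.

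*Actl6a* (ENSMUSG00000027671), which encodes the actin-like subunit BAF53A, lies on chromosome 3 from 32706298 to 32726973 on the plus strand. In control tumors its normalized counts stayed between 5629.8 and 5930.2, at 5930.2, 5629.8, 5847.6, 5768.5 and 5812.1. All 5 clone 4 tumors were above that range, at 6654.8, 6762.6, 6841.4, 6698.2 and 6274.9. Clone 18 tumors were split, with 6240.4, 6503.9 and 6709.3 above the range and 5514.7 and 5599.2, in tumors 13 and 14, below it. The log2 difference was 0.20 in clone 4 (SE 0.06, limma adjusted p = 0.027), 0.07 in clone 18 (SE 0.06, adjusted p = 0.405) and 0.13 for both clones (SE 0.06, adjusted p = 0.0989). The clones differed by -0.12 (95% confidence interval -0.25 to -0.002, adjusted p = 0.264). The clone 4 call was lost without tumor 2, 4, 6, 7, 8 or 9 (adjusted p of 0.0509 to 0.0661). For both clones together *Actl6a* passed with upper quartile scaling, quantile normalization, edgeR, DESeq2 and the GC and length correction, with adjusted p of 0.0112 to 0.0469, and also without tumor 13 or 14. *Mrpl47* overlaps it on the other strand.

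*Smarcb1* and *Smarce1* varied least among the control tumors, together with *Actl6a*. *Smarcb1* (ENSMUSG00000000902), the core subunit SNF5 that contacts the nucleosome acidic patch, lies on chromosome 10 from 75896769 to 75921617 on the minus strand. Control tumors averaged 4683 ± 97.1, those of clone 4 4777 ± 206 and those of clone 18 4601 ± 419 (SD, n = 5 each), with tumor 13 lowest at 3963.6. The log2 difference was -0.001 (95% confidence interval -0.11 to 0.11, limma adjusted p = 0.993). *Smarce1* (ENSMUSG00000037935), the HMG-box subunit BAF57, lies on chromosome 11 from 99209047 to 99231017 on the minus strand. The averages were 4588 ± 98.0 for control tumors, 4230 ± 211 for clone 4 and 4432 ± 204 for clone 18 (SD, n = 5 each). Below the whole control range lay 7 knockout tumors, but the log2 difference was -0.08 (95% confidence interval -0.18 to 0.01, limma adjusted p = 0.213). Reads of the pseudogene *Smarce1-ps1* on chromosome 8 could be shared with *Smarce1*.

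**Figure D2:**
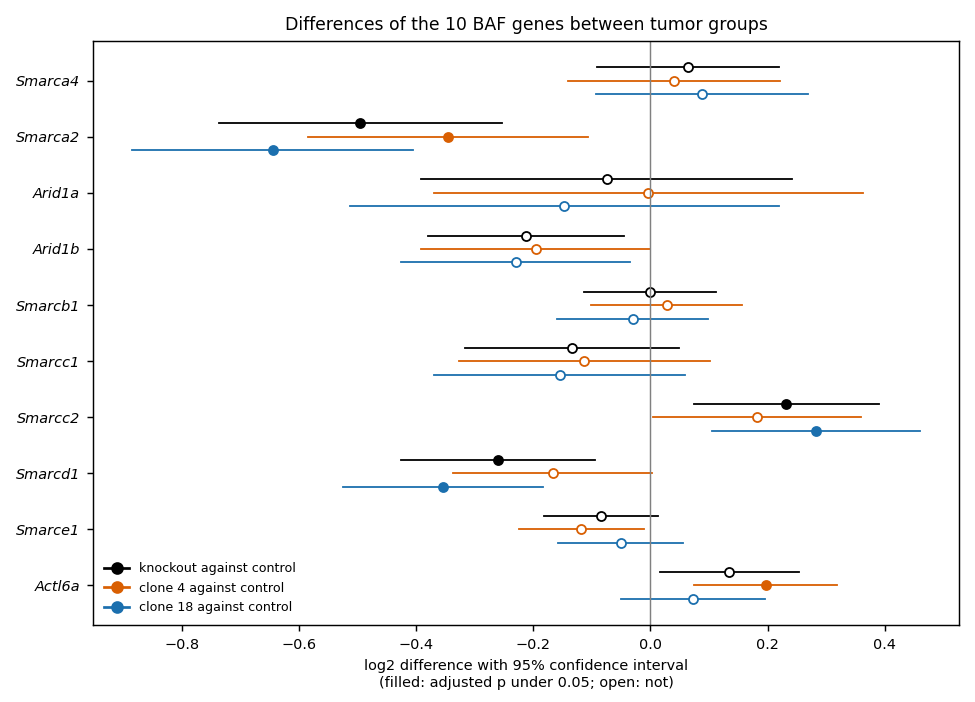
Log2 differences of the 10 BAF genes from limma with 95% confidence intervals, for both clones together (black), clone 4 (orange) and clone 18 (blue), each against the same 5 control tumors. Filled points have an adjusted p under 0.05, which holds for *Smarca2* in each of the 3 comparisons.

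Per length, the order of the genes was the same in each group. In control tumors the mean normalized count per kilobase of the longest coding transcript was 2884 for *Actl6a*, 2821 for *Smarcb1*, 1572 for *Smarce1*, 903.6 for *Smarca4*, 707.6 for *Smarcc2*, 601.5 for *Smarcc1*, 469.4 for *Smarcd1*, 461.6 for *Smarca2*, 328.0 for *Arid1b* and 169.5 for *Arid1a*. Neighbors closer than the sum of their SDs in the control were *Actl6a* and *Smarcb1*, *Smarcc2* and *Smarcc1*, *Smarcc1* and *Smarcd1*, and *Smarcd1* and *Smarca2*. In clone 18, *Smarca2* had fallen to 293.9 ± 14.9 (SD, n = 5) per kilobase and was no longer apart from *Arid1b* at 279.2 ± 30.3 (SD, n = 5), nor was it in clone 4. The core subunits *Actl6a*, *Smarcb1* and *Smarce1* were thus listed well above the ATPases, with lengths from 1 annotated transcript per gene. The normalized counts of the 10 genes summed to 33948 to 39773 per control tumor, 33074 to 39367 per clone 4 tumor and 34166 to 36778 per clone 18 tumor, which overlap.

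The balance between paralogs was compared as a ratio within each tumor, which does not depend on the scaling between tumors. *Smarca2* over *Smarca4* had a ratio of normalized counts of 0.444, 0.511, 0.453, 0.494 and 0.468 in control tumors. It was 0.423, 0.305, 0.413, 0.34 and 0.346 in clone 4, and 0.334, 0.257, 0.281, 0.264 and 0.295 in clone 18. All 10 knockout tumors were below all 5 control tumors, including tumor 6, whose *Smarca2* count alone lay within the control range. The log2 ratio fell by 0.559 in knockout tumors (two-sided exact permutation test, p = 0.000666, adjusted p = 0.004 over 12 tests). Its log2 difference was -0.385 for clone 4 and -0.733 for clone 18, each with an exact permutation p of 0.00794, the smallest that 5 against 5 tumors allow, and an adjusted p of 0.0159. Between clone 18 and clone 4 it was -0.348 (exact permutation p = 0.0159, adjusted p = 0.0272), with overlap between the clones, and this call was lost without tumor 8, 12, 13 or 15 (adjusted p = 0.0544). Weighted by the length of the longest coding transcript, *Smarca2* made up 33.8% ± 1.31 of the ATPase transcripts of control tumors, 28.1% ± 2.80 of those of clone 4 and 23.5% ± 1.91 of those of clone 18 (SD, n = 5 each). For *Smarca2* 46 transcripts are annotated, and for *Smarca4* 4, so the level of these shares depends on the transcript chosen.

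For the scaffold pair, the ratio of *Smarcc2* over *Smarcc1* was 0.871, 0.835, 0.962, 0.999 and 1.02 in control tumors. It was 1.21, 1.08, 1.15, 1.11 and 1.19 in clone 4, and 1.24, 1.35, 1.31, 1.18 and 1.25 in clone 18. Again the 10 knockout tumors did not overlap with the 5 control tumors. The log2 ratio was 0.366 higher in knockout tumors (two-sided exact permutation test, p = 0.000666, adjusted p = 0.004), 0.295 higher in clone 4 and 0.438 higher in clone 18 (adjusted p = 0.0159 for both). Clone 18 was 0.143 above clone 4 (exact permutation p = 0.0238, adjusted p = 0.0357), a call that was lost without tumor 7, 8, 9, 11, 12, 13 or 15 (adjusted p of 0.0635 to 0.0714) and with the GC and length correction (adjusted p = 0.107). *Smarcc2* made up 54.2% ± 2.18, 59.2% ± 1.1 and 61.6% ± 1.22 of the pair per length in the control, clone 4 and clone 18 (SD, n = 5 each). Over all genes, 7.98% had normalized counts that did not overlap between knockout and control tumors, and 0 of the 10 BAF genes did so by themselves. That share is for single genes. The share of gene pairs whose ratios do not overlap was not computed, so the ratios have no background here.

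The ARID1 pair gave another picture. *Arid1b* over *Arid1a* averaged 2.74 ± 0.438 for control tumors, 2.41 ± 0.471 for clone 4 and 2.59 ± 0.380 for clone 18 (SD, n = 5 each), and the groups overlapped. The log2 ratio differed by -0.138 in knockout tumors (two-sided exact permutation test, p = 0.292, adjusted p = 0.351) and by -0.192 in clone 4 (exact permutation p = 0.214, adjusted p = 0.286). Tumor 9, at 3.22, stood above the other clone 4 tumors at 2.02 to 2.33, and without it the clone 4 difference was -0.302 (adjusted p = 0.0476). By length, *Arid1b* made up 66.2%, 63.1% and 64.9% of the pair in the 3 groups.

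**Figure D3:**
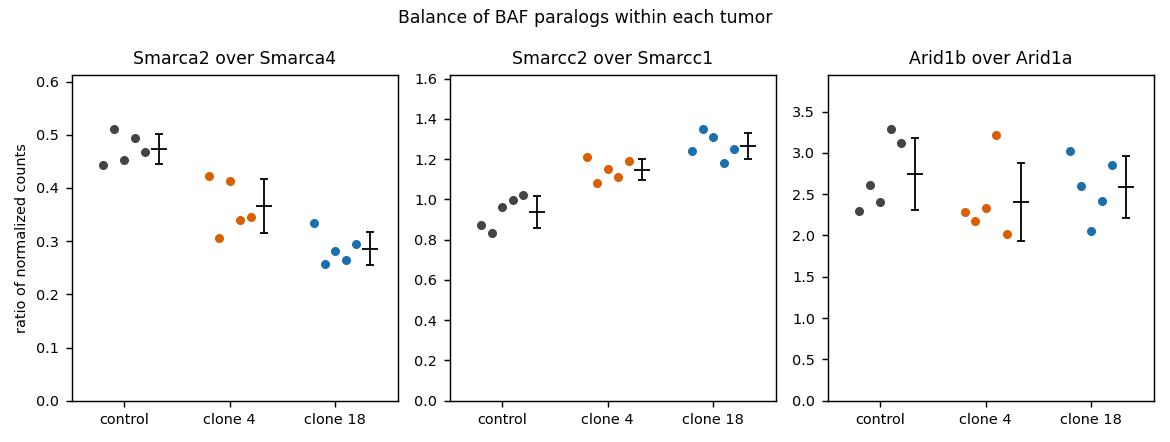
Ratio of normalized counts of each paralog pair within a tumor, on linear axes from 0, with 1 point per tumor (5 per group) and the mean ± SD of the group beside the points. Control and knockout tumors do not overlap for *Smarca2* over *Smarca4* (control 0.444 to 0.511) or *Smarcc2* over *Smarcc1* (control 0.835 to 1.02), and do for *Arid1b* over *Arid1a*.

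Of 19 other SWI/SNF subunits listed, 17 were measured, 2 of them under the older symbols *Gltscr1* and *Gltscr1l*, and 5 were lower and 0 higher in knockout than in control tumors (limma), where 12.9% of all genes were lower and 9.23% higher. Without the targeted *Pbrm1* the count was 4 of 16. Among the 5 were *Pbrm1* itself (log2 difference -1.69, SE 0.07) and 2 other PBAF subunits, *Phf10* (-0.51, SE 0.07, adjusted p = 5.29e-05) and *Brd7* (-0.17, SE 0.06, adjusted p = 0.0326). *Smarcd2*, the paralog of *Smarcd1*, ranged from 4165 to 4616.5 normalized counts across control tumors, from 2730.3 to 2963.2 across clone 4 and from 3064.2 to 3374.2 across clone 18. Its log2 difference of -0.54 (SE 0.05, adjusted p = 1.42e-06) was the largest in size of the 5 apart from *Pbrm1*. All 10 knockout tumors were below all 5 control tumors for *Smarcd2*, as for *Pbrm1* and *Phf10*, but not for *Brd7* or *Gltscr1l*. Over all genes, 7.98% had counts that did not overlap between control and knockout tumors. *Gltscr1l*, a subunit of the non-canonical form of BAF, had -0.38 (SE 0.12, adjusted p = 0.031). The median log2 difference of the 17 was -0.113, and -0.082 without *Pbrm1*. Without tumor 1, 3 of the 17 passed, while DESeq2 called 8.

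Of 20 other remodeler ATPases, of the ISWI, CHD, INO80 and related families, 1 was lower and 0 were higher in knockout tumors, where 22.1% of all genes passed, and the median log2 difference was -0.019, equal to that of all genes. *Chd3*, an ATPase of the NuRD complex, had normalized counts of 2660.2 to 3619.9 in control and 1846.6 to 2541.8 in knockout tumors, a log2 difference of -0.35 (SE 0.08, limma adjusted p = 0.00424). Without tumor 13, 2 of the 20 passed.

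**Figure D4:**
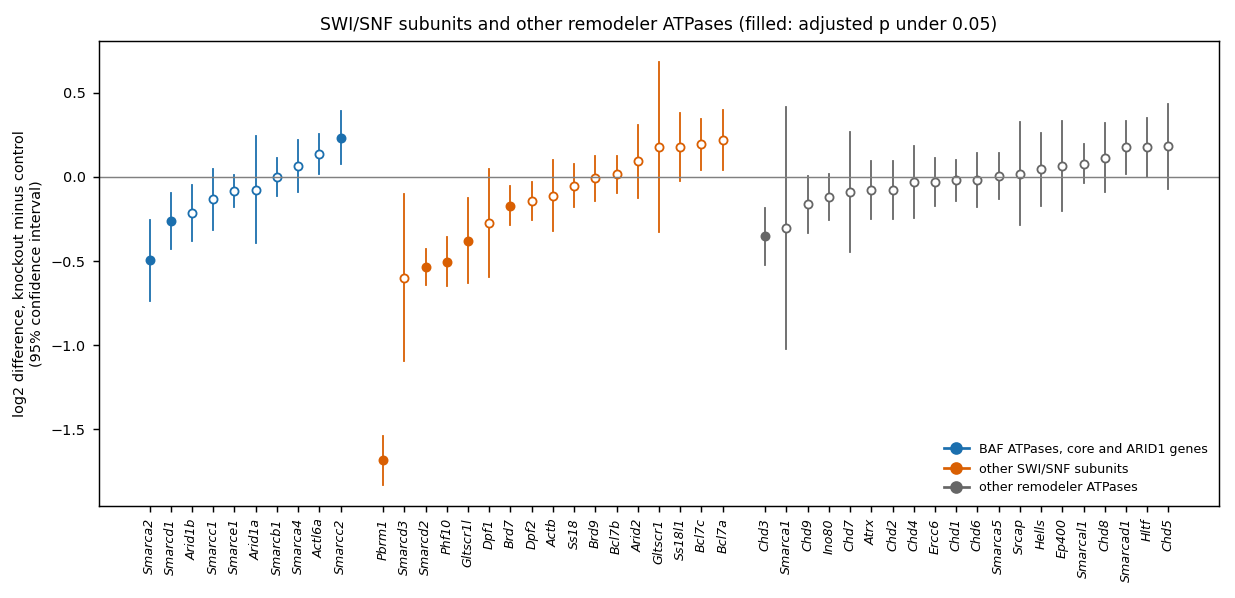
Log2 difference of knockout minus control tumors with 95% confidence intervals from limma, for the 10 BAF genes, 17 other SWI/SNF subunits and 20 other remodeler ATPases, sorted within each list. Filled points have an adjusted p under 0.05, with 3, 5 and 1 genes, and *Pbrm1* lies lowest at -1.69.

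Several of the 10 genes were low or high in the same tumors. Within the control, tumor 4 was lowest for 6 genes, *Smarca4*, *Arid1a*, *Arid1b*, *Smarcc1*, *Smarcc2* and *Smarcd1*, and tumor 2 highest for 5. In clone 4, tumor 9 was lowest for 7 genes and tumor 7 highest for 6. In clone 18, tumor 11 was lowest for 5 genes and tumor 14 highest for 5. A library measure was low or high in the same 6 tumors, the median deviation of genes in the top length quintile minus that in the bottom one, which was -0.195 in tumor 4, -0.14 in tumor 9 and -0.101 in tumor 11 on the log2 scale, and 0.169, 0.17 and 0.079 in tumors 2, 7 and 14. Tumor 13 went against this, since it was lowest in the measure, at -0.26, but lowest of its group for *Smarcb1* and *Actl6a*, which have the shortest transcripts of the 10, while *Arid1a*, a long one, lay 0.265 above its group mean there. A like measure for GC content, the top quintile minus the bottom one, was 0.255 in tumor 13 and -0.17 to 0.105 in the other tumors. The part of either measure in the differences was not tested beyond the GC and length correction. With that correction 3 of the 10 genes passed between knockout and control tumors, *Smarca2*, *Smarcc2* and *Actl6a*, and in clone 4 the 2 that passed were *Actl6a* and *Smarcc2*. All 10 log2 differences of knockout against control were higher with the correction than without it, and that of *Smarca4* was 0.181 (limma adjusted p = 0.0647). The median over all genes also rose, from -0.019 to 0.036. Of all called genes 57.4% were higher with the correction, against 41.7% without it. All of the 10 genes but *Actl6a* moved up by more than that median did. *Arid1a*, for example, went from -0.075 to 0.046, and *Actl6a* from 0.134 to 0.181. Whether the rise was particular to these genes was not tested.

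**Figure D5:**
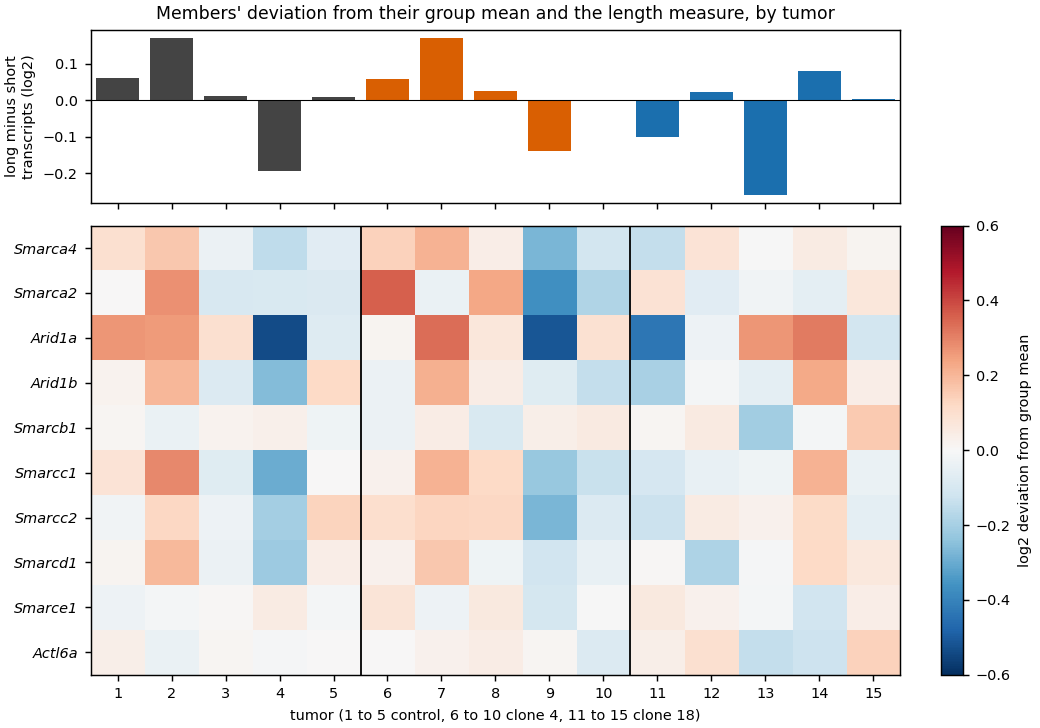
Log2 deviation of each BAF gene from its group mean in each tumor (colors, rows are genes, columns are tumors), below the median difference of long minus short transcripts over all genes in the same tumor (bars, log2). Tumors 4, 9 and 11 are low for many of the genes and low in the length measure, tumors 2 and 7 are high in both, and tumor 13, lowest in the length measure, does not share that pattern.

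Among 12146 genes with a mean of at least 100, the genes whose log2 profile over the 15 tumors lay nearest to that of *Smarca4* were *Baz1b*, *Sf3b3* and *Cux1*, with mean absolute differences of 0.0497, 0.0543 and 0.0548 after centring.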

How the data were processed

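RNA of 15 tumors was sequenced. The deposited values are a signal, normalized counts with 1 decimal. To make them the authors used TopHat2 and mm10 for the alignment, HTSeq for the reads on each gene and DESeq for the size factors of the tumors. Versions, annotation and strand setting are not given in the sources used here. All columns had a sample, and 0 were left out.

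After 29 of the 18279 genes had been dropped for lack of any read, 18250 were tested on log2(normalized count + 1) with limma 3.58.1 with trend, in a fit of 10 knockout against 5 control tumors and a fit of the 3 groups. The Benjamini-Hochberg adjustment covered all genes, with a threshold of 0.05. Whole reads were recovered by undoing the size factors. In each tumor 100.0% of the values up to 8000 came out whole within 0.1, and edgeR 4.0.16 on these reads called 4105 genes between knockout and control tumors. Size factors of 2 tumors were too near 1 to test this from the values alone. The counts of the 30 pairs of tumors within groups gave a chi-square of 17.69 to 164.24 per degree of freedom, above sampling noise. Thus no library was present more than once within a group, and pairs between groups were not compared. The sources used here do not say whether each tumor came from a mouse of its own, so p-values measure only the spread between these tumors, which may in part be technical.

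Paralog ratios were tested with two-sided exact permutation tests over all splits of the tumors, whose smallest p are 0.000666 (10 against 5) and 0.00794 (5 against 5), adjusted over 12 tests. As alternatives, the pseudocount was set to 0.1 or 5 and genes with means under 10 were dropped, beside upper quartile scaling, quantile normalization, limma without trend, edgeR, DESeq2 1.42.0, each tumor left out, and a correction for GC content and length chosen after seeing the data. The code was tested on simulated data.

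Values per tumor are given for genes called in any comparison and for both ATPases and both ARID1 genes. Other subunits and remodelers are named where they were called between knockout and control tumors. The 3 genes with the nearest profile are given for *Smarca4*, and those for *Smarca2* are not reported here. The genes, lists and tests were chosen with earlier results of these data known. Positions are from GENCODE M21 on GRCm38. The analyses used R 4.3.3 and Python 3.11.15 with scipy 1.17.1.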

Additional observations from a re-analysis of the deposited data

Results flagged for a closer look

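In 3 of 39 groups of 5 tumors looked at, 1 tumor stood apart from the other 4 by Dixon's ratio, where chance gives 1.95. Control tumor 2 had a normalized count of *Smarca2* of 3284.3, against 2540.8 to 2726.0 in the other controls, and without it the log2 difference of knockout against control was -0.427 (limma adjusted p = 0.0213). Tumor 14 of clone 18 had 3575.4 for *Smarcc1*, against 2882.9 to 3039.4. Tumor 9 of clone 4 had a ratio of *Arid1b* over *Arid1a* of 3.22, against 2.02 to 2.33.

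Both knockout lines shifted in the same direction from the control in 2 paralog ratios, but by different amounts. *Smarca2* over *Smarca4* was -0.348 on the log2 scale in clone 18 against clone 4 (exact permutation p = 0.0159, adjusted p = 0.0272), and *Smarcc2* over *Smarcc1* was 0.143 (exact permutation p = 0.0238, adjusted p = 0.0357). The lines share the genotype label and differ in clone.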

How the results depend on the processing

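*Smarca2* in knockout and in clone 18 tumors kept its direction and its call under each alternative, as did both paralog ratios that differed from the control. The number of the 10 genes called between knockout and control tumors was 1 to 4 with 1 tumor left out, with 1 (*Smarca2*) without tumor 1. In clone 4 it was 1 with limma without trend or edgeR and 0 to 1 with 1 tumor left out, and between the clones 0 to 1, with *Smarca2* (-0.392, adjusted p = 0.0437) without tumor 9. Of the other subunits, 8 passed with DESeq2 and 3 to 7 with 1 tumor left out, with 3 without tumor 1. Of the other ATPases, 2 passed with the GC and length correction and 1 to 2 with 1 tumor left out, with 2 without tumor 13.

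Between the clones, the log2 ratio of *Smarcc2* over *Smarcc1* was 0.105 (adjusted p = 0.107) with the correction and 0.119 to 0.167 with 1 tumor left out, and that of *Smarca2* over *Smarca4* was -0.41 to -0.292. Both calls were lost without tumor 8, 12, 13 or 15, the first also without tumor 7, 9 or 11, where fewer splits remain. *Arid1b* over *Arid1a* in clone 4 was -0.302 to -0.123.

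Signs changed only among uncalled differences near 0. *Smarcb1* in knockout tumors was 0.021 with upper quartile scaling and with edgeR, 0.032 with quantile normalization, 0.009 with DESeq2, 0.080 with the correction, and -0.015 to 0.026 with 1 tumor left out. In clone 18 it was 0.006, 0.014 and 0.014 with both scalings and the correction, and -0.069 to 0.023. *Arid1a* in clone 4 was 0.005, 0.023 and 0.13 with the same 3, 0.008 with edgeR, and -0.138 to 0.125, and in knockout tumors 0.046 with the correction. *Smarce1* in clone 18 was 0.016 with the correction. With 1 tumor left out, *Smarca4* was -0.012 to 0.109 in clone 4 and -0.021 to 0.10 between the clones, where *Arid1b* was -0.091 to 0.018 and *Smarcc1* -0.099 to 0.010. The causes were not tested. No paired analysis was possible because tumor numbers are not shared between groups.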
